A study of Mus musculus with 4 samples.

Results

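Genes of the translation initiation and elongation factors were examined in the map of TFIIB binding in the mouse heart. They were taken as the rows of the deposited gene table whose name begins with Eif or Eef and a digit. This rule gave 62 of the 14469 genes, and the merged TFIIB regions that name them numbered 101 of 20364. Of the 62 genes, 49 were counted as translation factors. These include Eif4a3 and Eef1e1, whose products act in the exon junction complex and the tRNA synthetase complex. The remaining 13 of the 62 genes carry the name for another reason. They are the 4 eIF2 kinases, the eEF2 kinase, 4 proteins that bind eIF4E, and 4 Argonautes of the microRNA pathway, which the table lists under their old names Eif2c1 to Eif2c4.

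TFIIB was immunoprecipitated with an antibody to GTF2B from whole hearts of C57BL/6 mice. The samples were a TAC heart (hypertrophied, 12-week-old male mice, 4 days after transaortic coarctation), a neonatal heart (1 to 2 days, during normal postnatal growth), a normal adult heart (12 weeks) and input DNA, with 1 library each. The labels do not say whether hearts were pooled. In the tables the ChIP libraries carry codes that match no sample label, so TAC, neonatal and adult hearts were not compared, and every value below is one the tables give over all ChIP libraries together, with no replicate error.

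Translation begins when the small ribosomal subunit, loaded with initiator tRNA by eIF2 and held by eIF3, is recruited to the mRNA cap by eIF4F, scans to the start codon with eIF1 and eIF1A, and joins the large subunit with the help of eIF5B. eEF1A then brings each aminoacyl-tRNA and eEF2 moves the ribosome on. Growth of the heart needs a higher rate of protein synthesis, and eIF2 kinases, eIF4E-binding proteins and eEF2 kinase slow it.

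The annotated promoters of 6 genes are given as reference sequence, and the TFIIB regions themselves were not read. The only TFIIB interval of Eif2s3y lies at -431 bp from its deposited start, further than the 250 bases printed. The 6 genes are the 3 highest and the 3 lowest in peak value among members with a single TFIIB region and a single promoter in the RefSeq table (GRCm38.p6). Each printed sequence runs from 250 bases before the start to 30 bases after it. Capitals mark matches, on either strand, to the GC box GGGCGG, the box CCAAT, the ETS core CCGGAA, part of the NRF1 site (CATGCGC), part of the YY1 site (ATGGCG) or the A and T runs TATAAA and TATATAA; runs of capitals longer than a motif are overlapping matches. A match is a description of the letters and not a binding site. The highest 3 are Eif4a2 (chr16:23107218-23107497, plus strand), Eif1 (chr11:100319699-100319978, plus strand) and Eef1a1 (chr9:78481695-78481974, minus strand).
Eif4a2: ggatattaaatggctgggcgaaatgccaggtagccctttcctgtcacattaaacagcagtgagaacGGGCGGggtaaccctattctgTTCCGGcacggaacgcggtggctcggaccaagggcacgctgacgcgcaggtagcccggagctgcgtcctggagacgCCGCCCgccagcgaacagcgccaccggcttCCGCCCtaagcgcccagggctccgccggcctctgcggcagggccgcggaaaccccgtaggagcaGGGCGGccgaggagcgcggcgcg
Eif1: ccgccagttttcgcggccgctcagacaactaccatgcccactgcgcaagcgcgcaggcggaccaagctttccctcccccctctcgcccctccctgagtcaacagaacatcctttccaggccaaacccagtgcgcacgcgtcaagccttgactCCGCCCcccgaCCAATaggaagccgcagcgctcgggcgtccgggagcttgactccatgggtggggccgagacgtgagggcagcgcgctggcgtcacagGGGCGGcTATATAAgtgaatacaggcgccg
Eef1a1: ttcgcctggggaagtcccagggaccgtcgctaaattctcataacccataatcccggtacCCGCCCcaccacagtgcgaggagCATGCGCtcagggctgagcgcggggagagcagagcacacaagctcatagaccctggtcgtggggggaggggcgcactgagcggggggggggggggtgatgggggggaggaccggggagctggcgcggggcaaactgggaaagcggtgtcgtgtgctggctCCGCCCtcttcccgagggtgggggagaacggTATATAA
The lowest 3 are Eif2c4, now Ago4 (chr4:126533429-126533708, minus strand), Eif1ay, now Eif1ax (chrX:159371928-159372207, plus strand) and Eif2s3y (chrY:1010345-1010624, plus strand).
Eif2c4: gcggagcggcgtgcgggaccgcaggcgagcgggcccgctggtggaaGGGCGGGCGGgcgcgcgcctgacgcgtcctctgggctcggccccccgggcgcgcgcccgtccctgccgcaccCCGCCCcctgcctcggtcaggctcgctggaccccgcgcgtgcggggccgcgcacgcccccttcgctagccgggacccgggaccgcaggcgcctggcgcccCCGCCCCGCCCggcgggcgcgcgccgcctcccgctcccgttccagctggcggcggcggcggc
Eif1ay: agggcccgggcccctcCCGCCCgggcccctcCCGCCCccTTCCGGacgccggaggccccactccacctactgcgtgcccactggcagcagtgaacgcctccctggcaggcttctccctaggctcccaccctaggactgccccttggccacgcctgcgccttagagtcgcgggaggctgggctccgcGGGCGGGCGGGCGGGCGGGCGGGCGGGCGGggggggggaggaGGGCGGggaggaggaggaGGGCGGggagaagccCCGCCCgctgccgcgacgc
Eif2s3y: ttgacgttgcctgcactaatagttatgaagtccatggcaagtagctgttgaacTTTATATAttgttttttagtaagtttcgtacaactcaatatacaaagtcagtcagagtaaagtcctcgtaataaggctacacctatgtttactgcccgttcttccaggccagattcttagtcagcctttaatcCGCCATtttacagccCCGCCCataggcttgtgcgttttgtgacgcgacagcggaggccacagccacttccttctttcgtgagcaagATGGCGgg
GGGCGG occurs in all 6 of these promoters, high and low alike, and overlapping copies fill a stretch before the start of Eif1ay. TATATAA begins 8 bases after the annotated start in Eif1 and 24 bases after it in Eef1a1, counting the first transcribed base as 1. The 250 bases before the start were 66.4%, 66.8% and 68.0% G or C in Eif4a2, Eif1 and Eef1a1, and 85.6%, 78.8% and 44.4% in Eif2c4, Eif1ay and Eif2s3y.

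The deposited tables held the markers of the heart's cell types. All 8 cardiomyocyte markers were listed, with peak values of 31 to 207, and 7 had a region centred within 1000 bp of the start. All 4 endothelial markers, 3 of 4 fibroblast markers and all 3 leukocyte markers had one too, and the 4 markers of tissues outside the heart had no row in the gene table. Library depth is unknown from the tables, and the region and gene tables hold no read counts.

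TFIIB stood at the start of nearly every translation factor gene. A region was centred within 1000 bp of the annotated start, called here a start-site region, in 57 of the 62 members (91.9%, exact 95% interval 82.2 to 97.3%), against a background of 76.5% over all 14469 genes of the table. With a window of 5000 bp the shares were 91.9% of members and 85.4% of all genes, the second inside the interval of the members. Among translation factors alone, within 1000 bp, it was 46 of 49 (93.9%). The interval covers counting over genes only, and genes of the table are there because a region was assigned to them. Among members, all 6 genes of eIF1, eIF1A, eIF5 and eIF5B and all 10 of eIF2 and eIF2B had a start-site region. So did all 12 eIF3 subunits found by name, both eIF5A genes and all 4 Argonautes.

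Each of the 57 start-site regions also covered the start itself (91.9% of members), against 75.6% of all genes. Of the 57 regions, 54 held a CpG island (94.7%), against 83.8% of all 9969 start-site regions. The exceptions were Eif3s5 (now Eif3f), Eif2ak2 and Eif2s3y. Over all 101 regions that name a member, 81 held an island (80.2%), against 50.0% of all regions, and in regions of 2 or more intervals the shares were 90.2% and 74.5%. At least 3 called intervals built 39 of the 57 (68.4%, exact 95% interval 54.8 to 80.1%). The share of all start-site regions was 56.0%, which lies inside that interval. Regions made of a single interval were 4 of the 57 (7.02%), against a background of 19.7%. These 4 belonged to the eIF2B subunit gene Eif2b2, to Eif4e3, to Eef1e1 and to Eif2s3y.

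The 5 members with no start-site region were Eif4b, Eef1b2, Eif4e1b, Eif2ak1 and Eif4ebp3. Each owed its place in the table to regions elsewhere. Eef1b2, the gene of an eEF1A exchange factor (chromosome 1, 63211997 to 63226230 in mm9), was named by a single region centred 11523 bp inside the gene, which is also the start-site region of Ndufs1. Eif2ak1, encoding the haem-regulated eIF2 kinase, took its only region from 37776 bp past its start, at the shared start of Jtv1 and Pms2. Eif4ebp3 and Eif4e1b were named by the start-site regions of Sra1 and Tspan17. Eif4b, encoding a helper of the eIF4A helicase, had 4 regions, the nearest upstream, centred at -7960 bp (LOC676882's start). Why these starts had none was not tested, and the starts are those of the deposited annotation.

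The called intervals lay close to the start. Each interval carries a position, a median of 70 bp from the region centre in the 1875 genes of the table with 1 interval. Members had 151 intervals within 1000 bp of a start, a median of 17 bp upstream of it, and 97 of them (64.2%) fell within 100 bp. Over all genes 27355 intervals had a median 11 bp upstream, with 53.3% within 100 bp. In the 53 members with several such intervals the positions spanned a median of 64 bp, against 80 bp over 9168 genes. The intervals of Eif2ak3 were at 9 bp upstream and, for both others, 7 bp downstream, and those of Eif3s4 (now Eif3g) were both 38 bp upstream. The largest span, 1008 bp, was in Eif3s12 (now Eif3k), whose region is shared with the start of Map4k1.

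Some starts had their intervals to 1 side. In Eif4e, the cap-binding protein gene (chromosome 3, 138189155 to 138220563), intervals lay 733, 765 and 765 bp downstream of the annotated start and none nearer, with another at 1821 bp. In Eef1a2, the muscle and nerve isoform of eEF1A, they lay 232, 264 and 280 bp downstream. In Eif3s1 (now Eif3j1) all 3 lay upstream, at -266, -266 and -250 bp, and in Eif3s7 (now Eif3d) at -282, -282 and -234 bp. In these 4 genes the separate calls within 1000 bp of the start fell within 48 bp of each other.

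**Figure D1:**
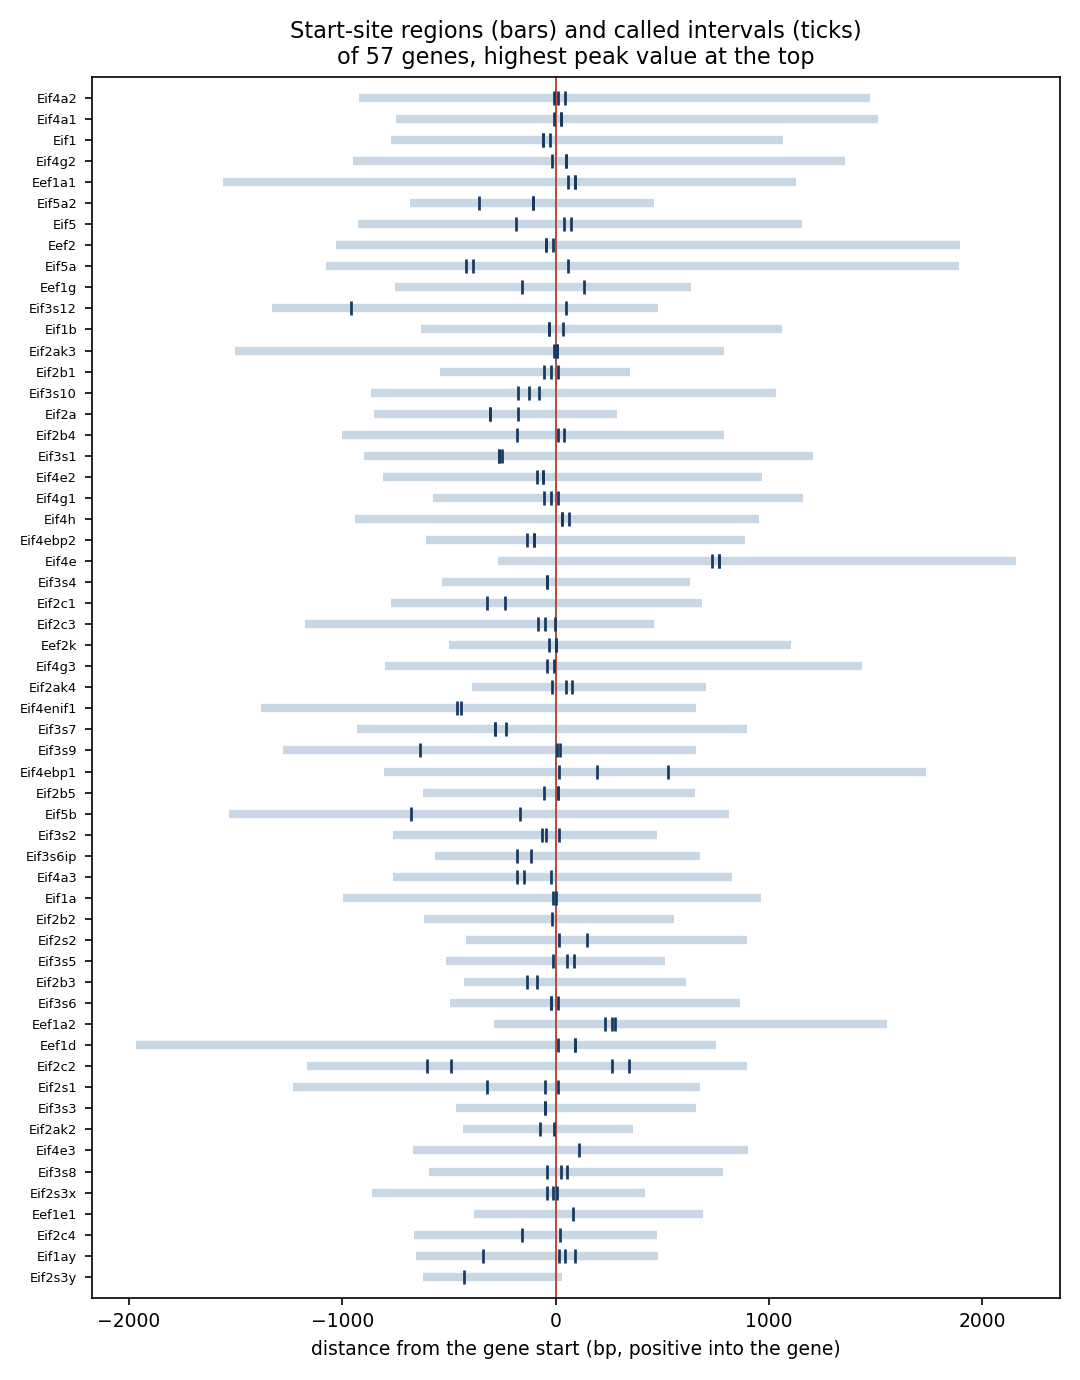
Start-site regions (pale bars) and called intervals (dark ticks) of the 57 genes that have one, by distance from the gene start in bp, with the highest peak value at the top. Most ticks stand at the start line; those of Eif4e stand 733 to 765 bp into the gene.

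Peak values of the members were spread widely around a somewhat higher centre than the table's. For each gene the authors' table lists a peak value, the maximum signal of the gene among the libraries. It is a whole number of unstated scale. Members ran from 9 to 178 with a median of 43 and quartiles of 30.2 and 63.2, against a range of 7 to 298, a median of 34 and quartiles of 24 and 47 over all genes. Of the 62 members 40 (64.5%) exceeded the median of all genes, which 49.5% of all genes did. At or above 65, the 90th percentile of all genes, stood 15 members (24.2%), against a background of 10.3%.

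A gene's value need not come from its own start. If it is the highest over the gene's regions, as was assumed here, a region cannot exceed the lowest value among the genes that name it. Where only 1 region of some gene could hold its value, that region's value is fixed. In this way the start-site regions of 45 of 57 members had a fixed value, with a median of 40, and those of the other 12 had an upper limit. Over all genes 6875 start-site regions were fixed (62.1% of genes with one), with a median of 34, and 7.78% of these reached 65. Of the 45 members 9 did, among them Eif2b1, whose start-site region is also that of Gtf2h3. No gene of the table had a value that none of its regions could hold.

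**Figure D2:**
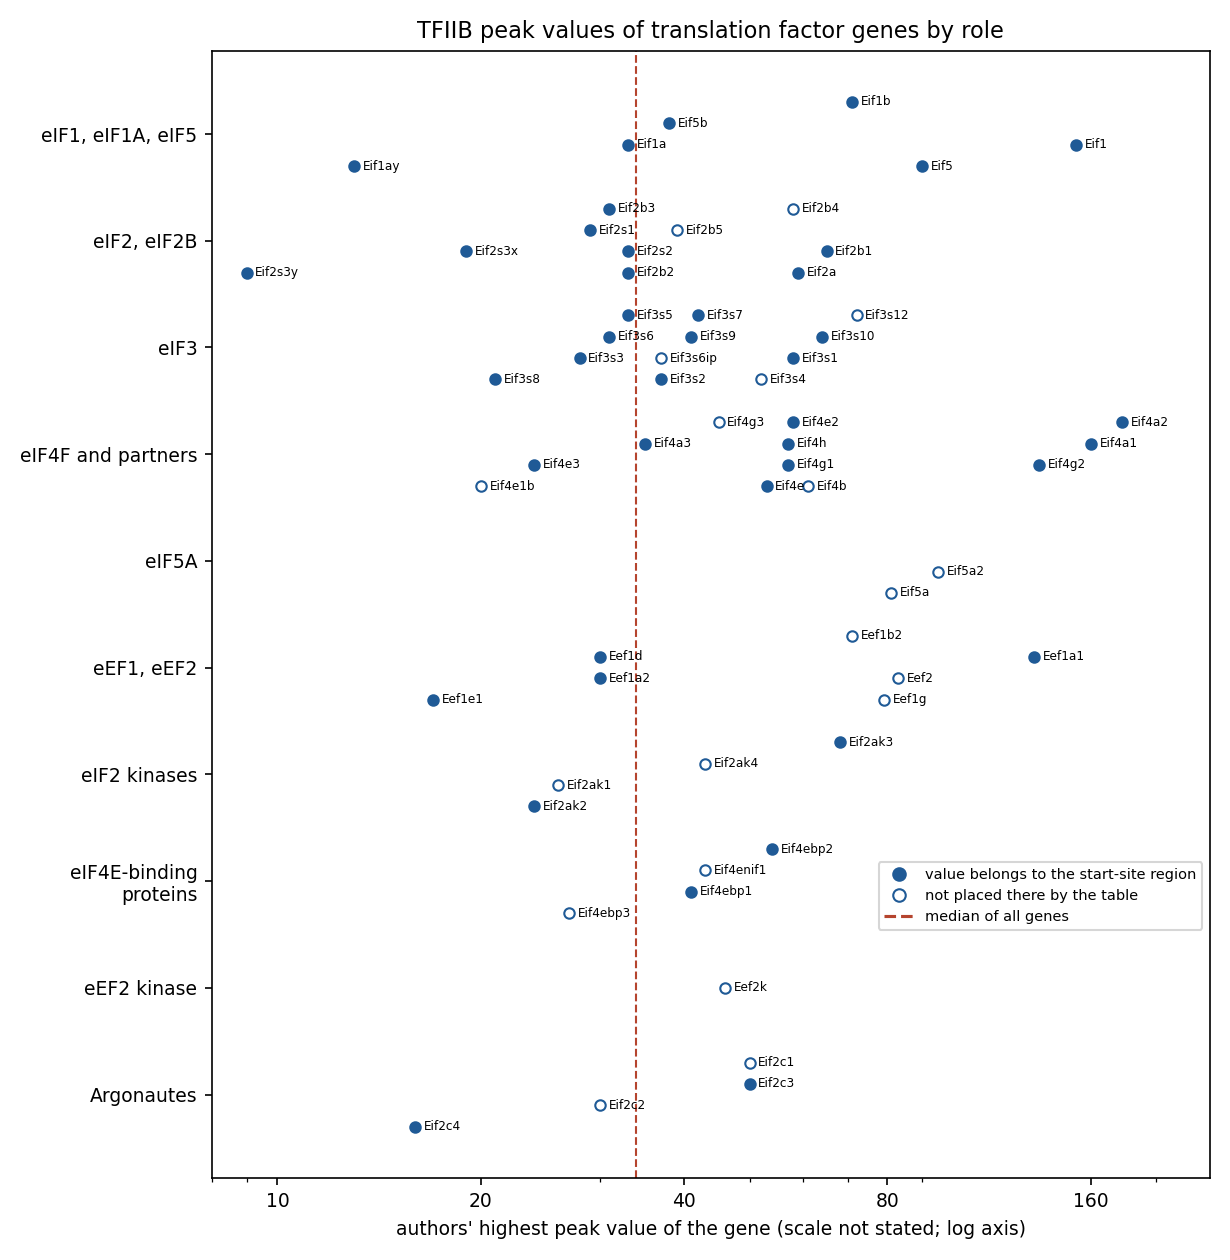
Peak value of each of the 62 genes (log axis, scale not stated by the authors), grouped by role. Filled circles are the 42 genes whose listed value is that of their start-site region, open circles those not placed there, and the dashed line is the median of all genes at 34; Eif4a2, Eif4a1, Eif1, Eif4g2 and Eef1a1 stand at the right, from 132 to 178.

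The 2 genes of the cap-complex helicase eIF4A carried the highest values. Eif4a2 (chromosome 16, 23107829 to 23114019), whose product unwinds the mRNA leader, had 178, at the 99th percentile of genes, and Eif4a1 (chromosome 11, 69480441 to 69485817) had 160. The related gene Eif4a3, for a helicase of the exon junction complex, had 35. Both high values belonged to start-site regions, and that of Eif4a2 also names Rfc4. The intervals of Eif4a2 lay 5 bp upstream and 11 and 43 bp downstream of the start, and those of Eif4a1 lay 7 bp upstream and, for both others, 25 bp downstream.

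Eif4a1 shared its region with 5 neighbours, and its value went with it. Mpdu1, Cd68, Senp3, Tnfsf13 and the Tnfsf12-tnfsf13 readthrough gene were all listed at 160. The start-site region of Mpdu1 was fixed at 53, that of Cd68, a macrophage marker, was at most 53, and those of Senp3 and the Tnfsf genes were at most 47. The region that gave Cd68 its 160 was the one over the start of Eif4a1.

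Other genes of the cap complex lay lower. The scaffold genes differed: Eif4g2, whose product lacks the eIF4E site and serves cap-independent initiation, had 134, Eif4g1 had 57 at its start, and Eif4g3 had 40 at its start, its listed 45 being that of the start of Hp1bp3. Eif4e had 53, its relative Eif4e2 had 58 and Eif4e3 had 24. Eif4h, a partner of eIF4A, had 57. Eif4b was listed at 61, held by 1 of 2 regions beyond the gene's end that also name Tenc1 (now Tns2), and Eif4e1b at 20. Over the 12 genes of this role, Eif4a3 counted among them, the median listed value was 57. Of the 12, 10 were listed above the median of all genes, which 49.5% of all genes exceeded.

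Eif1, encoding the factor that keeps scanning ribosomes from near-cognate codons, had 152 (chromosome 11, 100181308 to 100183410). Its paralogue Eif1b had 71, and Eif5, encoding the GTPase-activating protein of eIF2, had 90. Eif5b had 38 and Eif1a 33. Eif1ay, which the table places on chromosome X and RefSeq now names Eif1ax, had 13. All 6 of these values belonged to start-site regions, and they spanned the 98.2nd to the 5.65th percentile.

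The subunits of eIF2 itself were among the lower members. Eif2s1 (alpha, the site of the inhibitory phosphorylation) had 29, Eif2s2 (beta) 33, Eif2s3x (gamma, X-linked) 19 and its Y-linked copy Eif2s3y 9, the lowest of all 62. Eif2a, a separate initiator tRNA-binding factor, had 59. Of the eIF2B exchange factor, Eif2b1 had 65, Eif2b4 at most 58, Eif2b5 at most 39, Eif2b2 33 and Eif2b3 31. The median of these 10 genes was 33.

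The 3 members on sex chromosomes, Eif2s3x, Eif1ay and Eif2s3y, were all among the 5 lowest. Over the whole table the median was 22 for 363 genes on X and 11 for 3 genes on Y, against 35 for 14103 autosomal genes. The median of the 59 autosomal members was 45. The part of sex chromosome number in these values was not tested.

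The eIF3 scaffold, which binds the small subunit and organises the other factors, had moderate values. Its 12 subunit genes found by name had listed values of 21 to 72, with a median of 39. Of the 12, 8 were listed above the median of all genes, which 49.5% of all genes exceeded. The 8 include Eif3s12 and Eif3s4, whose own start-site regions lay below that median of 34. Ga17 (now Eif3m), a further subunit outside the naming rule, had 26 and is not counted here. Eif3s10 (Eif3a) had 64, Eif3s1 (Eif3j1) 58, Eif3s7 (Eif3d) 42, Eif3s9 (Eif3b) 41, Eif3s2 (Eif3i) 37, Eif3s5 (Eif3f) 33, Eif3s6 (Eif3e) 31, Eif3s3 (Eif3h) 28 and Eif3s8 (Eif3c) 21, all at their starts. Eif3s6ip (Eif3l) was at most 37 there. The highest listed value, 72 for Eif3s12 (Eif3k), was that of the start of Actn4, the actinin gene 20093 bp downstream, while its own start-site region was at most 28. Likewise the 52 listed for Eif3s4 (Eif3g) lay in 1 of 2 downstream regions that also name Ppan, and its own start was at most 29. The 9 fixed start-site values of eIF3 ran from 21 to 64, with a median of 37.

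Listed values of the elongation factor genes ran from 17 to 132, and among those with a fixed start-site value only Eef1a1 exceeded 40. Eef1a1 (chromosome 9, 78326260 to 78329531), the widely expressed form of eEF1A, had 132, and Eef1a2, the form that adult heart and skeletal muscle also use, had 30. Each value belonged to a start-site region of 3 intervals, and that of Eef1a1 also names Mto1. Eef1d, an exchange-factor subunit, had 30 and Eef1e1, whose product sits in the tRNA synthetase complex, 17. Eef1g, the gamma subunit, had 40 at its start, and its listed 79 lay in regions beyond its end that also name Ahnak. Eef1b2 was listed at 71, the value of the Ndufs1 start. Eef2 (chromosome 10, 80639405 to 80645241) was listed at 83, and its 5 regions are shared with Pias4, Dapk3 or Itgb1bp3 (now Nmrk2) so that none is fixed. The listed values of the 7 elongation genes, with Eef1e1 counted, had a median of 71, and the 5 fixed start-site values a median of 30. Eef2k had at most 46 at its start.

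The eIF5A genes, whose hypusine-bearing product eases the joining of difficult residues, were listed at 95 for Eif5a2 and 81 for Eif5a. For Eif5a2 the value is fixed for the region at the start of Rpl22l1, a ribosomal protein-like gene 24319 bp away, and its own start was at most 95. For Eif5a the start and the region of the neighbour Gps2 cannot be told apart.

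Genes that restrain translation or silence mRNAs were listed at 16 to 68. Among the eIF2 kinases, Eif2ak3, encoding PERK, the kinase of endoplasmic reticulum stress, had 68 from its only region, Eif2ak4 (GCN2, which senses uncharged tRNA) at most 43, and Eif2ak2 (PKR, which senses double-stranded RNA) 24. Eif2ak1 was listed at 26 without a region at its start. Of the eIF4E-binding proteins, Eif4ebp2 had 54 and Eif4ebp1 41 at their starts, Eif4ebp3 27 from another gene's start, and Eif4enif1, the eIF4E transporter gene, at most 43. The Argonautes, which act in microRNA silencing, had 50 for Eif2c3, 34 for Eif2c1, at most 30 for Eif2c2 and 16 for Eif2c4. The 50 listed for Eif2c1 was that of the Eif2c3 start, 38672 bp downstream of its own.

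Some members held regions beyond their start. A single region was assigned to 40 of the 62 (64.5%), against 52.7% of all genes, and 11 (17.7%) had 3 or more, against 20.7% of all genes. Of the 101 regions, 57 were at a member's start. Of the other 44, 24 were centred at the start of another gene and 20 at no start, 10 of them made of a single interval. The most regions, 5 each, were assigned to Eef2 and Eef1g, and 4 each to Eif4a1, Eif4b and Eif4g1. In Eef1g the 4 further regions lay 13953 to 23479 bp from its start, past its end, and all 4 also name Ahnak. In Eif4a1 the other 3 were start-site regions of Mpdu1, Cd68 and Senp3. In Eif4g1 a short region of 456 bp followed the start-site region after a gap of 3 bp, and the 2 at and past the gene's end were at most 20.

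**Figure D3:**
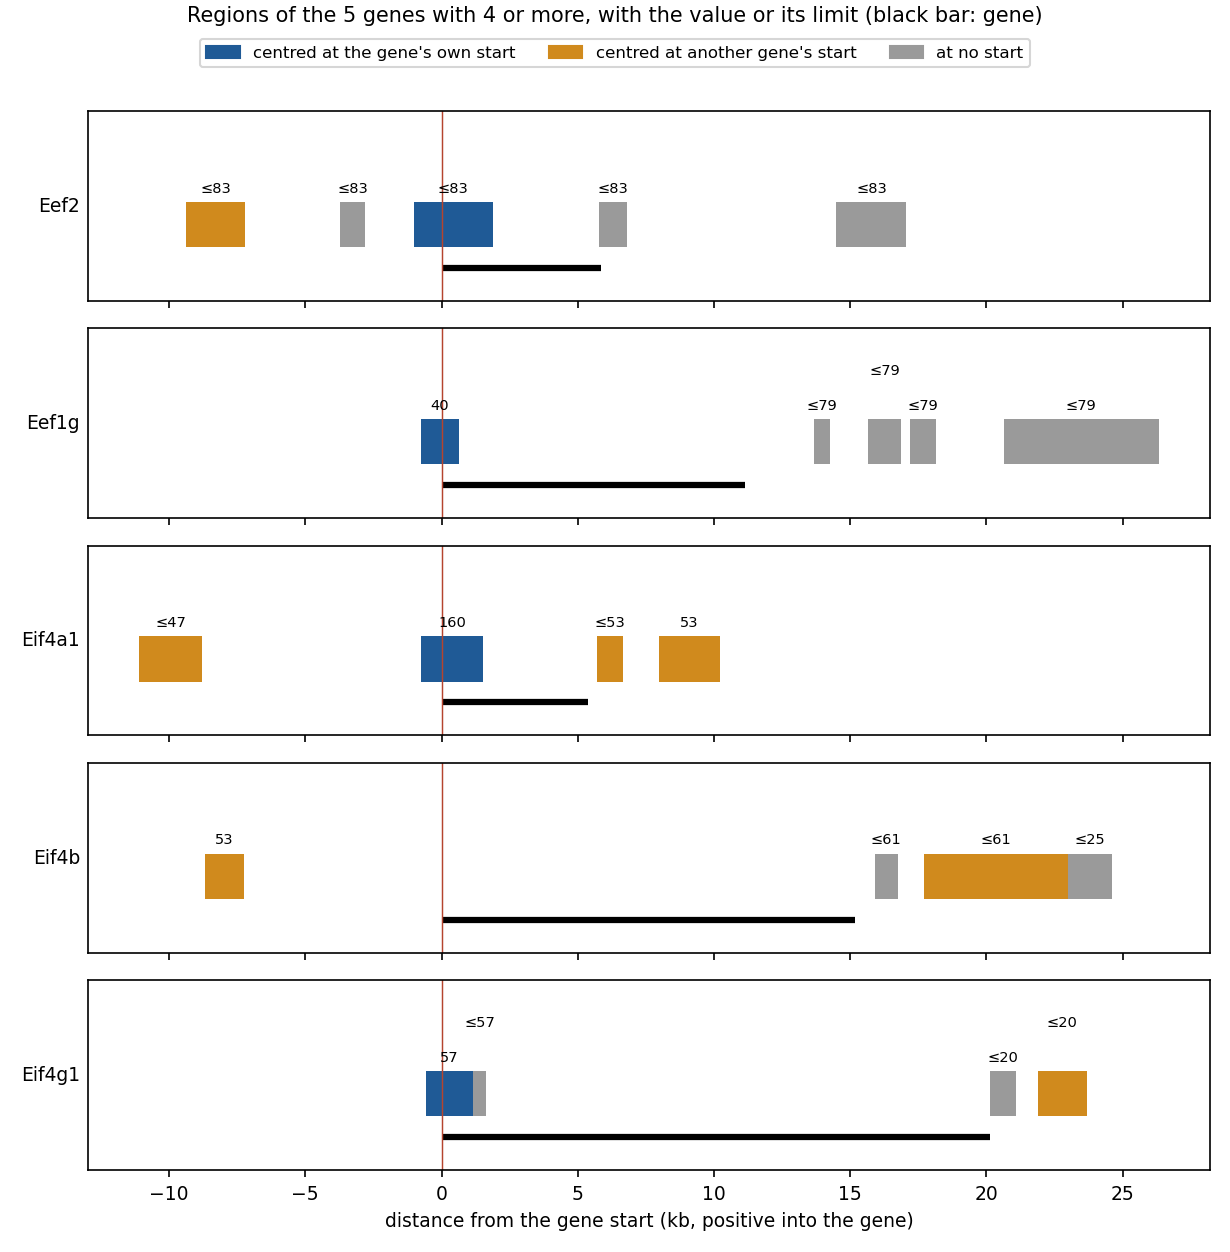
Regions assigned to Eef2, Eef1g, Eif4a1, Eif4b and Eif4g1 by distance from the gene start in kb (black bar, the gene), coloured by whether the region is centred at the gene's own start, at another gene's start or at none. Numbers are the region's fixed value or its upper limit: Eif4a1 has 160 at its start with the other regions at 53 or less, and Eif4b has no region at its start.

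Members shared promoters with divergent neighbours in 8 of 57 start-site regions (14.0%, exact 95% interval 6.26 to 25.8%), against a background of 8.92%, which lies inside that interval. The pairs were Eif2b1 with Gtf2h3 (a subunit of TFIIH), Eif2b4 with Snx17, Eif2a with D3Ucla1 (now Serp1), Eif2s1 with Atp6v1d, Eif5b with Txndc9, Eif3s2 with 2510006D16Rik (now Tmem234), Eif3s12 with Map4k1, and Eef1d with Tigd5. In such a pair the region's value cannot be given to either gene, so the start-site values given above for these 8 members are those of shared regions.

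The promoter letters of the members were set beside those of the other genes. RefSeq windows from 250 before to 50 after the start, were found for 49 of the 62 members, 65 windows in all, since 8 genes had several. GGGCGG, the GC box, was in 46 of 65 (70.8%), against 60.4% of 13411 windows of genes in the TFIIB table and 35.7% of all 32851 windows. CCGGAA, the core of ETS factor sites, was in 25 (38.5%), against 25.5% and 14.9%. CACGTG, the E box read by Myc and USF proteins, was in 14 (21.5%), against 9.50% and 7.15%. CATGCGC, part of the NRF1 site, was in 9 (13.8%), against 6.48% and 3.91%. CCAAT was in 18 (27.7%), against 37.4% in both larger sets, and ATGGCG, part of the YY1 site, in 12 (18.5%), against 14.0% and 8.93%.

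TATAAA was in 5 of 65 windows (7.69%), against 7.52% and 13.6%. It was found in Eef2, Eif2s1, Eif2s3y, Eif3s5 and Eif3s9. TGACGTCA was in 1, that of Eef2, against 2.96% and 1.79%. TATATAA, added after the sequences above were seen, was in 3 (Eif1, Eef1a1 and Eif2s3y, 4.62%), against 1.45% and 3.24%, and overlaps TATAAA in Eif2s3y. Eif5a gave 6 of the 65 windows and 3 of the 14 with CACGTG. With genes of a single window only, CACGTG was in 22.0% of 41 member windows, against 9.88% of 8534. On the same windows TATAAA was in 12.2% of member windows, against 7.45%, and TATATAA in 7.32%, against 1.39%, from 5 and 3 member windows. The 12 genes with CACGTG were Eif4a1, Eif4e, Eif4g1, Eif4h, Eif1b, Eif3s10, Eif3s12, Eif3s5, Eif5a, Eif5a2, Eef2 and Eef2k. These shares are descriptions, and windows differ in base composition: the median share of G and C before the start was 61.6% in members, 59.6% in genes of the table and 52.4% in all windows.

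**Figure D4:**
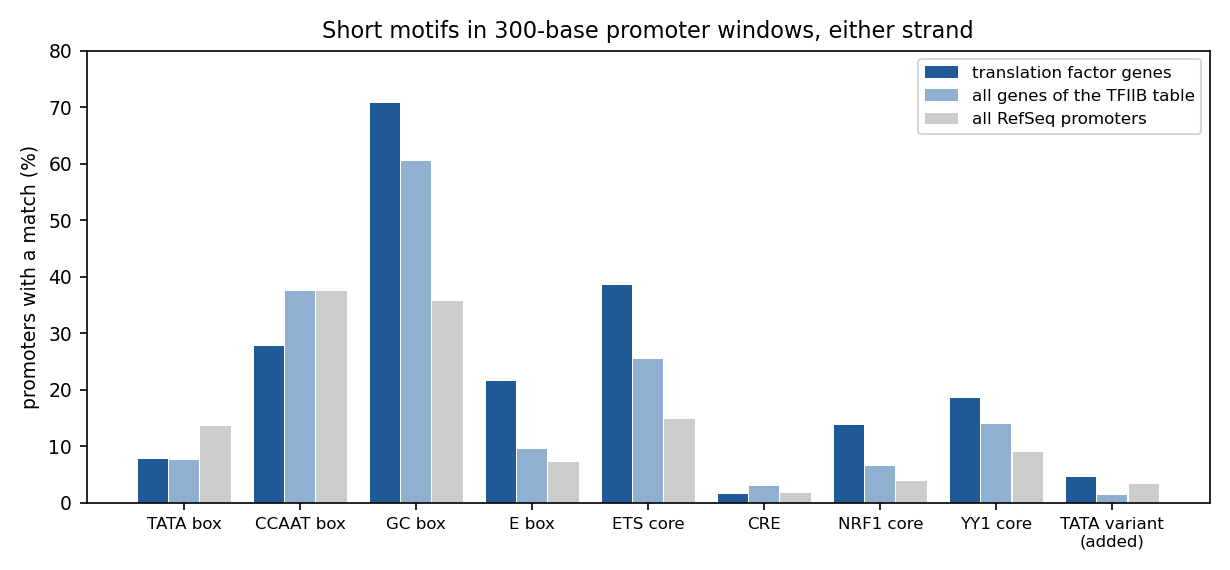
Share of promoter windows (percent) with a match on either strand to 9 short motifs, for the members (65 windows), all genes of the TFIIB table (13411) and all RefSeq windows (32851). The bar of the members is above both others for the GC box (70.8%), the ETS core (38.5%) and the E box (21.5%), and below them for the CCAAT box (27.7%).

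A run of pyrimidines at the first transcribed base is the mark of the mRNAs that mTOR controls, many of which encode elongation factors and ribosomal proteins. Runs of 8 or more C or T that include the annotated first base or a base beside it were in 8 of 65 windows (12.3%), against 6.30% of windows of genes in the table and 5.97% of all. They belonged to Eif2b5 (21 bases), Eif2s3x (16), Eif3s5 (15), Eif2s3y (12), Eef1a1, Eif3s6ip and 1 window of Eif4enif1 (10 each) and 1 window of Eif2ak4 (9). In Eef2 the run was 2 bases. The annotated start need not be the one used in heart, and no RNA start was measured.

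Genes that act beside the factors were taken from lists of related genes. For comparison, 76.5% of all genes of the table had a start-site region, and the median value of all genes was 34. Of 13 genes listed for termination, ribosome recycling and poly(A) binding, 12 were in the table. All 12 had a start-site region, with a median value of 47.5. Pabpc1, the main cytoplasmic poly(A)-binding protein gene, had 144 from its only region, Pabpc4 at most 116 at its start, and Abce1 and Gspt1, for recycling and release, 58 each. Of 15 genes listed for the signalling from mTOR and MAPK to translation, 13 were in the table. A start-site region was held by 10 of the 13, close to the share over all genes, and the median value of the 13 was 43. Rps6kb1, encoding the S6 kinase, had 72 at its start, Myd116 (now Ppp1r15a, a cofactor that reverses eIF2 phosphorylation) at most 101, Rps6kb2 was listed at 92 with at most 47 at its start, and Mknk2 was listed at 281 with no region centred at its start.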

How the data were processed

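TFIIB ChIP-seq was deposited as 2 tables, of merged regions and of genes, in mm9 coordinates per the submitters' processing notes. Per the labels' protocols a company did the ChIP, library construction and sequencing; the sources used here do not give the aligner, caller, thresholds, scaling or handling of reads that map to several places. Per the file headers, the authors' peak value is the maximum signal of a gene among the libraries. The 15 per-library columns carry codes that match no label and were not used, so the comparison of conditions that had been designed was not made. Numbers of intervals, regions and islands and distances to starts were used as deposited. They were tabulated with Python 3.11.15 (pandas 2.3.3, SciPy 1.17.1), and figures drawn with matplotlib 3.10.9.

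Members were described beside all genes of the table, with no test: there is 1 library per group, and intervals (exact Clopper-Pearson, 95%) cover counting over genes only. The placing of gene values in regions was run on simulated region values over the same 14469 genes. Each simulated gene value was set to the highest of its regions, so 100% were placed rightly by construction. That run checks only the code, and whether the authors' values are built this way was not tested. Current symbols come from RefSeq (GRCm38.p6), which matched all 62 members; 17 symbols differ. Named genes were the 20 highest and 8 lowest members, those without a start-site region or with 3 or more regions, the eEF1, eEF2, eIF4F and kinase genes, and the leading genes of the related lists; the others were named after their values were seen. The members and lists were chosen with earlier results of these data known. Alternatives were other windows around the start, members limited to translation factors, genes with 1 region, unshared regions, and regions with several intervals or an island.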

Additional observations from a re-analysis of the deposited data

How the results depend on the processing

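Over 17 alternatives, 12 left the member value inside the 95% interval of the reported one and 5 did not. For the median peak value that interval is not given here, and the settings that gave 34 fell outside it. This count does not weigh the difference from all genes or regions. Coverage of starts was 87.1% (68.7% over all genes) within 500 bp, 91.9% (85.4%) within 5000 bp, 91.9% (75.6%) with starts inside a region, 93.9% (76.5%) with translation factors alone and 85.5% (62.8%) with regions of several intervals. It was 100% in members and in all genes when any region counted, as the construction of the table makes it. The median peak value of 43 was 34 over the 40 members with 1 region (30 over all such genes), 34 over the 24 with no region shared with another gene outside the set (29 over genes with no shared region), 36.5 with 1 region at the start (32 over all such genes), and 40 over fixed start-site values (34 over all genes with one), a setting added after the data were seen. The share of regions with an island, 80.2% (50.0% over all regions), was 94.7% at starts (83.8% over all start-site regions) and 90.2% (74.5%) in regions of 2 or more intervals. Single-interval start-site regions were 5.56 to 8.70% in every alternative, against 14.5 to 20.9% of all. Depth is unknown, so a region absent from the table may be one below detection. No paired analysis was possible because each group had 1 library.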

Other observations

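The table lists further factor genes under other names, outside the naming rule, and their TFIIB values were low to middling. By gene ID, 8 rows have a current symbol beginning with Eif or Eef. Itgb4bp (now Eif6, which keeps the ribosomal subunits apart) was listed at 36 with 2 regions, and its start was at most 36. Lgtn (Eif2d) had 20, Ga17 (Eif3m, an eIF3 subunit) 26 and 2010003J03Rik (Eif1ad) 29. The methyltransferase genes 5730409G15Rik (Eef2kmt) and 2010208K18Rik (Eef1akmt2) were listed at 36 and 37, which are only upper limits for their starts. The methyltransferase genes 5630401D24Rik (Eef1aknmt) and N6amt2 (Eef1akmt1) had 35 and 31. All 8 had a start-site region, against 76.5% of all genes of the table. None reached the 43 that was the median of the 62 genes found by name.

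Genes that charge tRNAs and that translate in mitochondria also carried TFIIB at their starts. Over all genes of the table the share with a start-site region was 76.5% and the median value was 34. Of 22 cytosolic aminoacyl-tRNA synthetase genes listed, 19 were in the table. All 19 had a start-site region, with a median value of 41 and a range of 21 to 192. Farsa had at most 192 and Mars (now Mars1) at most 124 at the start, and Gars, with a single region, had 64. Of the mitochondrial translation factors all 9 had a start-site region, with a median of 38. Mtrf1, a release factor gene, was listed at 86, while Gfm2 had 43 and Tsfm 39 at their starts, and Tufm, the mitochondrial counterpart of eEF1A, at most 38.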
